A study of Mus musculus with 6 samples.

Results

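Ceramide synthases and the enzymes around them were followed in the cerebellum of adult mice exposed to methylmercury before birth. The set held 10 genes of the 56748 in the count table: the ceramide synthases Cers1, Cers2, Cers4, Cers5 and Cers6, the serine palmitoyltransferase subunits Sptlc1 and Sptlc2, the desaturase Degs1, and the glycosyltransferases Ugcg and Ugt8a. They were taken by gene symbol, and the family was selected on the fall of the Cers6 count in MeHg against Control libraries. The MeHg against Control difference of Cers6 is therefore given as a description, and the calls of the set in that contrast support nothing about it. All 10 genes had enough counts to be tested, among 16859 tested in all.

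Sphingolipids are built on ceramide, a fatty acid joined to a sphingoid base. Serine palmitoyltransferase makes the first sphingoid base intermediate, ceramide synthases attach the fatty acid, and each synthase prefers fatty acids of a certain chain length. Glucose added to ceramide leads to gangliosides, which are abundant on neurons, and galactose added to it leads to the galactolipids of myelin.

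The MeHg group was 3 C57BL/6J mice whose mothers drank water with 0.2 ppm methylmercury from the first day of pregnancy until birth, and the Control group was 3 mice of the same strain whose mothers drank water with 0 ppm. All were killed as adults at 90 to 120 days, so the RNA was sampled long after dosing ended. Each group held 2 females and 1 male by label. No dam or litter is given, so the p-values cover the spread of these 6 mice alone, litter mates or not. The total count was 14487022 to 15975367 in MeHg libraries and 14116088 to 20303833 in Control libraries.

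Library facts that touch the results are these. Control replicate 2 was labelled female but had 0.249 CPM of Xist and 87.2 CPM of the Y-linked gene Ddx3y, the levels of the libraries labelled male. By these genes sex was not balanced between the groups as it was by label. The fit with sex as a term used the labels, and none used sex as read from these genes. CPM is the count per 1000000 of the scaled library size. The summed level of 15 granule cell markers was 5835 to 6717 CPM in MeHg libraries and 7907 to 8390 CPM in Control libraries, and all 15 were detected. That of 15 oligodendrocyte and myelin markers was 6944 to 9214 CPM in MeHg libraries and 6071 to 6934 CPM in Control libraries, with all 15 detected. MeHg replicate 2 had the most midbrain and brainstem marker RNA, at 254 CPM, where the other MeHg libraries had 21.7 and 30.3 CPM and Control libraries 16.5 to 22.7 CPM. MeHg replicate 3 had the most choroid plexus marker RNA, at 7087 CPM, and Control replicate 3 the least, at 29.6 CPM.

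All 10 genes were expressed in every library. FPKM is the count per kilobase of gene and per 1000000 of a library total taken by the authors. The values imply totals of 15794857 to 17279811 in MeHg libraries and 14803520 to 21392002 in Control libraries. Each was above the total count of its library. FPKM averaged 4.60 (Cers4) to 31.7 (Degs1) in MeHg libraries and 4.45 (Cers4) to 28.1 (Degs1) in Control libraries. Degs1, which introduces the double bond that turns dihydroceramide into ceramide, stood above all others in both groups without overlap. Cers4, which favours long-chain fatty acids, and Sptlc2, the catalytic partner of Sptlc1, were the lowest and overlapped each other in both groups. Between these ends the order was Cers2, Ugt8a, Ugcg, Cers5, Cers1, Sptlc1 and Cers6 in MeHg libraries. In Control libraries it was Ugcg, Cers2, Ugt8a, Cers5, Cers1, Cers6 and Sptlc1. Cers6 overlapped its neighbours Cers1 and Sptlc1 in Control libraries. In MeHg libraries it lay apart, below Sptlc1 and above Sptlc2, with no overlap on either side.

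**Figure D1:**
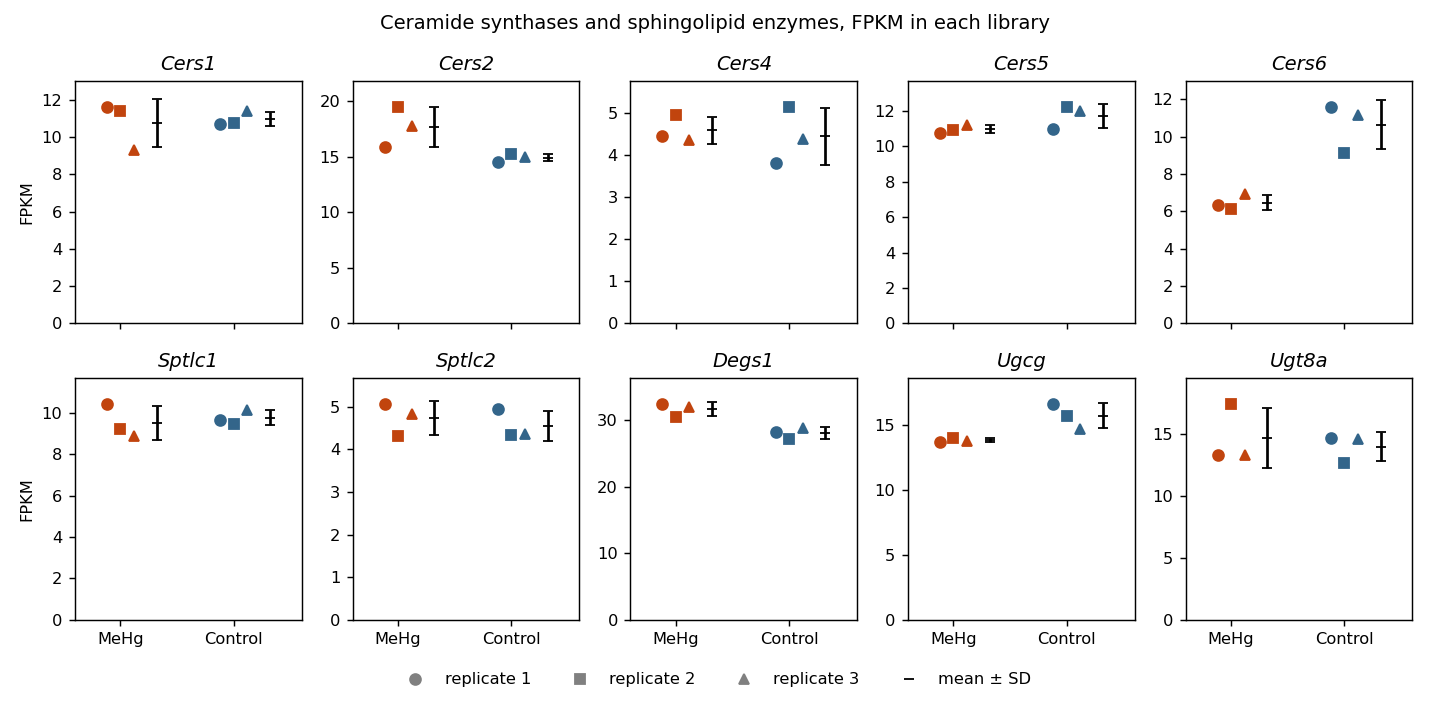
FPKM of the 10 genes in each library, with the MeHg group left of the Control group in each panel, one symbol per replicate number and the mean ± SD (n = 3) beside them; every axis starts at 0. Cers6 lies between 6.12 and 6.93 FPKM in MeHg libraries and between 9.14 and 11.6 FPKM in Control libraries, while Cers1, Cers4, Cers5, Sptlc1, Sptlc2 and Ugt8a overlap between the groups.

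Cers6 (ENSMUSG00000027035, chromosome 2, 68691785 to 68944626, plus strand, mm39) makes ceramides with palmitic acid. It had 60.2, 58.7 and 65.5 CPM in MeHg replicates 1, 2 and 3, against 109, 86.6 and 106 CPM in Control replicates 1, 2 and 3. Every MeHg library lay below every Control library, and the Control library nearest to them was replicate 2, the one that went against its sex label. The log2 fold change was -0.71 ± 0.09 (SE, 95% interval -0.92 to -0.49), which is 0.612 of the Control level. The edgeR quasi-likelihood test gave an adjusted p of 0.0431, the lowest that any gene reached. The adjustment gave this same value to other genes, among them St8sia5 with the 80th smallest p. Cers6 had the 12th smallest p of the 16859 genes. This value led to the choice of the gene and is not evidence beyond itself.

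Between settings, the size of the Cers6 difference held more firmly than its call. All settings drew on the libraries that led to the choice of the gene, so a shared sign is not separate support. Over 20 alternative settings the log2 fold change was -0.81 to -0.62 and negative in all 20, and it was called in 12 of them. Across these fits the adjusted p ran from 1.55e-11 to 0.207. The lowest came from the edgeR fit without a filter, which called 2378 genes and where Cers6 had the 53rd smallest p. DESeq2 gave an adjusted p of 1.64e-07. The call was lost without Control replicate 1 (log2 fold change -0.64, adjusted p = 0.125), Control replicate 3 (-0.67, 0.207), MeHg replicate 1 (-0.69, 0.0644) or MeHg replicate 3 (-0.75, 0.146). Without Control replicate 2 it was -0.81 (adjusted p = 0.0311). With an edgeR offset for gene length it was -0.62 (adjusted p = 0.0735), which lost the call. An edgeR offset for length and GC content gave -0.67 (adjusted p = 0.0470) and kept it. With limma on the deposited FPKM the log2 fold change was -0.70 to -0.63 (adjusted p = 0.0876 to 0.162).

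Gene length moved with the fold changes of the whole table. The 2729 tested genes over 8000 bp had a median of -0.11 on the log2 scale, and 8.02% of them were called lower in MeHg. The 3180 tested genes of up to 2000 bp had a median of 0.10, and 0.157% of them were called lower. Cers6 has a length of 8875 bp in the file. The other long genes of the set, Cers4 at 12264 bp and Sptlc2 at 8115 bp, had log2 fold changes of 0.06 ± 0.11 and 0.07 ± 0.09 (SE). What part gene length had in the Cers6 difference was not tested.

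Granule cells, by far the commonest cerebellar neurons, and Purkinje cells both had lower marker levels in the libraries with less Cers6. Of the 15 granule markers, 7 were called lower and 0 higher by edgeR, where 1.79% and 0.575% of all tested genes were. At an unadjusted p under 0.05 they were 12 lower and 0 higher, where 24.5% of all tested genes passed in either direction, and their median log2 fold change was -0.38. Of 12 Purkinje cell markers 10 had negative fold changes (median -0.18) and 1 was called lower, with a summed level of 6885 to 8852 CPM in MeHg libraries and 8877 to 9799 CPM in Control libraries. Per 1000 CPM of summed granule markers, Cers6 had 8.96, 10.1 and 10.4 CPM in MeHg replicates 1, 2 and 3, against 13.0, 10.7 and 13.3 CPM in Control replicates 1, 2 and 3. The groups still did not overlap on this scale, but MeHg replicate 3 and Control replicate 2 came close. In bulk tissue, fewer cells of a type and less RNA per cell cannot be told apart. The parts of granule and Purkinje cell content in the Cers6 difference were not tested.

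**Figure D2:**
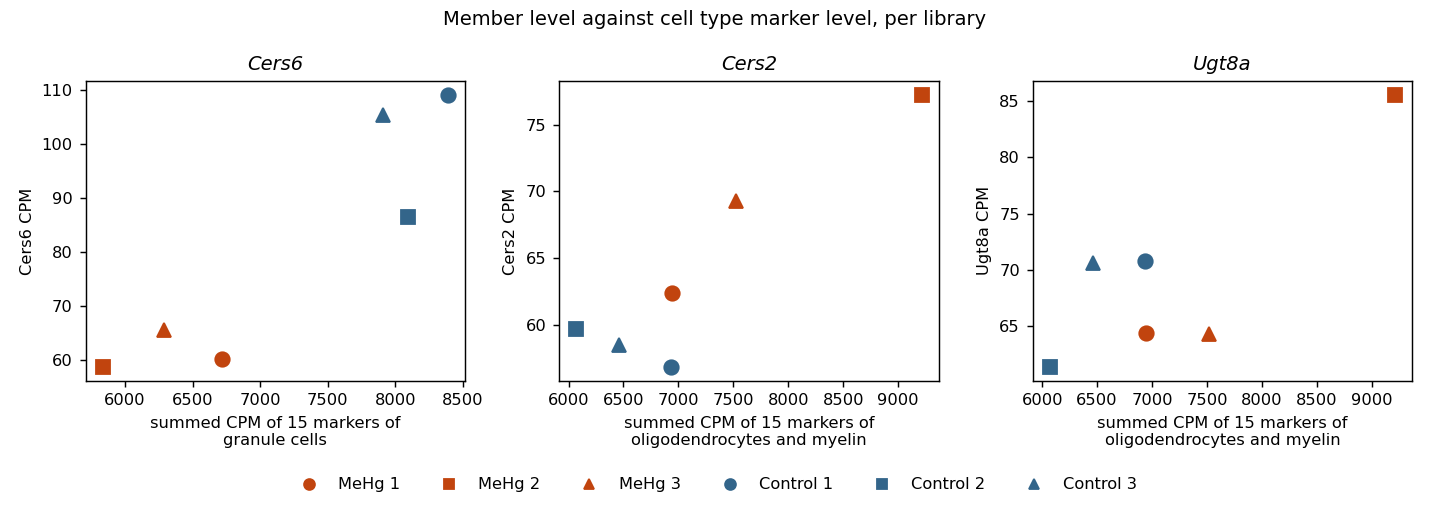
CPM of Cers6 against the summed CPM of 15 granule cell markers (left), and CPM of Cers2 (middle) and Ugt8a (right) against the summed CPM of 15 oligodendrocyte and myelin markers; each point is a library, coloured by group, with a symbol per replicate number, and the axes do not start at 0. Cers6 and the granule markers are both lower in the 3 MeHg libraries, and MeHg replicate 2 has the highest myelin marker sum (9214 CPM) and the most Cers2 (77.3 CPM) and Ugt8a (85.6 CPM).

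Cers5 (chromosome 15, 99632762 to 99670766), the other synthase that favours palmitic acid, had 40.8, 41.8 and 42.3 CPM in MeHg replicates 1, 2 and 3, against 41.3, 46.2 and 45.1 CPM in Control replicates 1, 2 and 3. The groups overlapped, with a log2 fold change of -0.09 ± 0.08 (SE, 95% interval -0.26 to 0.09, adjusted p = 0.529, edgeR). The FPKM ratio of Cers6 to Cers5, which does not depend on library scaling, was 0.588, 0.560 and 0.618 in MeHg replicates and 1.06, 0.747 and 0.933 in Control replicates. Cers6 RNA thus stood at 0.589 ± 0.029 of Cers5 in MeHg libraries and at 0.912 ± 0.155 in Control libraries (SD, n = 3 each).

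Cers2 (chromosome 3, 95222102 to 95230910) makes very-long-chain ceramides and is strongly expressed in oligodendrocytes. It had 62.4, 77.3 and 69.3 CPM in MeHg replicates 1, 2 and 3, against 56.8, 59.7 and 58.5 CPM in Control replicates 1, 2 and 3. The groups did not overlap, and MeHg replicate 2 was the highest. The log2 fold change was 0.26 ± 0.09 (SE, 95% interval 0.06 to 0.45), and it did not pass over all genes (edgeR adjusted p = 0.119). Per 1000 CPM of summed myelin markers, Cers2 had 8.98, 8.39 and 9.21 CPM in MeHg replicates and 8.19, 9.83 and 9.05 CPM in Control replicates, where the groups overlapped. All 15 of the myelin markers had a positive fold change (median 0.32) and 1 was called. The part of myelin RNA in the Cers2 difference was not tested. At their 3' ends, by the coordinates of the file, Cers2 overlaps Setdb1 by 75 bp and Cers1 overlaps Upf1 by 68 bp on the opposite strand. In GENCODE vM39 Cers2 ends farther on, at 95234060, so the region it shares with Setdb1 depends on the annotation. With strand handling unknown, reads there cannot be assigned with certainty.

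Cers1 (chromosome 8, 70768425 to 70784242), the synthase of stearoyl ceramides in neurons, had 39.4, 39.1 and 31.4 CPM in MeHg replicates 1, 2 and 3, against 36.1, 36.5 and 38.5 CPM in Control replicates 1, 2 and 3. MeHg replicate 3 was the lowest of the 6 and the other MeHg libraries were the highest. The log2 fold change was -0.02 ± 0.10 (95% interval -0.25 to 0.22), and its sign changed between settings, from -0.20 to 0.09. Gdf1, which lies within the 3' end of the Cers1 locus on the same strand, is listed with 0 counts in every library, so RNA of these genes cannot be told apart in this table. Cers4 had 58.5, 65.8 and 57.0 CPM in MeHg replicates 1, 2 and 3, against 49.7, 67.4 and 57.1 CPM in Control replicates 1, 2 and 3 (log2 fold change 0.06 ± 0.11, 95% interval -0.20 to 0.31), and the groups overlapped. Its log2 fold change was -0.04 without Control replicate 1. Cers3, a synthase best known from skin and testis, was not among the 10 and had at most 4 counts in any library.

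Among the ceramide synthases the make-up differed while their sum overlapped between the groups. Cers6 made up 12.8 ± 1.2% of the summed FPKM of Cers1 to Cers6 in MeHg libraries and 20.2 ± 2.6% in Control libraries (SD, n = 3 each), with no overlap. Cers2 made up 34.9 ± 2.3% in MeHg libraries and 28.3 ± 0.6% in Control libraries, also with no overlap. The shares of Cers1, Cers4 and Cers5 overlapped between the groups. The sum of all 6 was 50.6 ± 2.1 FPKM in MeHg libraries and 52.7 ± 1.1 FPKM in Control libraries. Without Cers6 the sum was 44.1 ± 2.3 FPKM in MeHg libraries and 42.1 ± 1.8 FPKM in Control libraries, and the groups overlapped. A share falls when another rises, so these shares are not independent of each other. The Cers6 values for which the set was chosen enter every share, so the shares are given as a description.

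**Figure D3:**
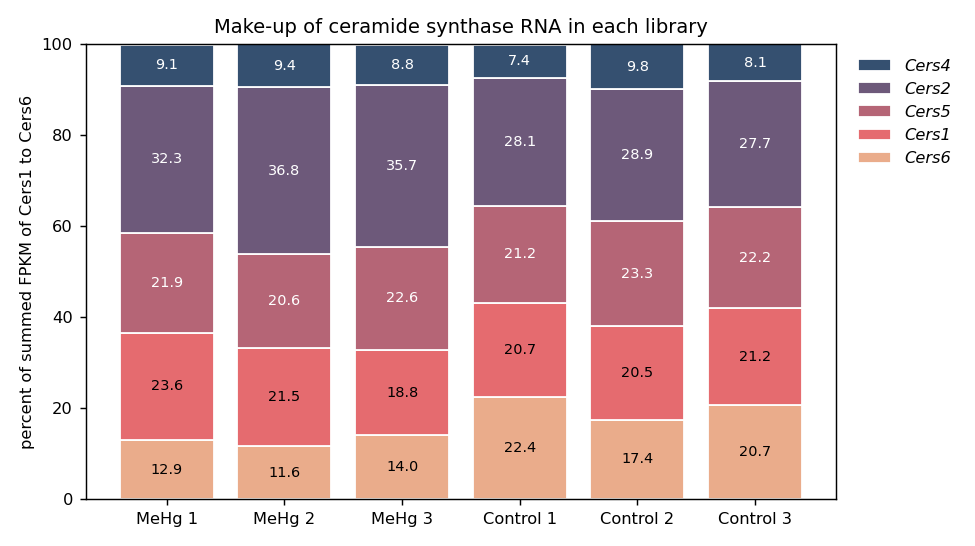
Percent of the summed FPKM of Cers1 to Cers6 taken by each ceramide synthase in each library, MeHg libraries left and Control libraries right; Cers3 is in the sum but at 0.0769 to 0.157% is too small to see. Cers6 takes 11.6 to 14.0% in MeHg libraries and 17.4 to 22.4% in Control libraries, and Cers2 takes 32.3 to 36.8% in MeHg libraries and 27.7 to 28.9% in Control libraries.

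The first enzyme of the pathway differed little. Sptlc1 had 39.7, 35.5 and 33.7 CPM in MeHg replicates 1, 2 and 3, against 36.4, 35.9 and 38.5 CPM in Control replicates 1, 2 and 3. Its log2 fold change was -0.02 ± 0.09 (95% interval -0.22 to 0.18), with a sign that changed between settings. Sptlc2 had 44.0, 37.8 and 41.7 CPM in MeHg replicates 1, 2 and 3, against 42.7, 37.5 and 37.7 CPM in Control replicates 1, 2 and 3 (log2 fold change 0.07 ± 0.09, 95% interval -0.14 to 0.27). Both genes overlapped between groups, and the FPKM ratio of Sptlc1 to Sptlc2 was 1.85 to 2.14 in MeHg libraries and 1.95 to 2.33 in Control libraries.

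Degs1 had 89.96, 85.5 and 88.2 CPM in MeHg replicates 1, 2 and 3, against 77.7, 75.0 and 79.4 CPM in Control replicates 1, 2 and 3. All MeHg libraries were higher. Set against 1000 CPM of summed myelin markers, Degs1 had 12.95, 9.27 and 11.7 CPM in MeHg replicates and 11.2, 12.35 and 12.3 CPM in Control replicates. There the groups overlapped and the MeHg mean was the lower (11.3 and 11.95 CPM). MeHg replicate 2, with the highest myelin marker sum, had the least Degs1 of the MeHg libraries by CPM. The part of myelin RNA in the Degs1 difference was not tested. The log2 fold change was 0.18 ± 0.06 (SE, 95% interval 0.05 to 0.32), and it did not pass over all genes (edgeR adjusted p = 0.109). It was positive in all 20 alternative settings (0.10 to 0.22) and called in 0 of them.

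Ugcg, which adds glucose to ceramide and so opens the ganglioside branch, had 76.3, 78.9 and 76.4 CPM in MeHg replicates 1, 2 and 3, against 92.1, 87.3 and 81.5 CPM in Control replicates 1, 2 and 3. All MeHg libraries were lower, and Control replicate 3 came nearest to them. The log2 fold change was -0.17 ± 0.07 (SE, 95% interval -0.32 to -0.03), and it did not pass (edgeR adjusted p = 0.154). Per 1000 CPM of summed granule markers, Ugcg had 11.4 to 13.5 CPM in MeHg libraries and 10.3 to 10.97 CPM in Control libraries. This is the opposite order to that of its CPM. The marker sum was lower in MeHg libraries by more than Ugcg was, so the reversal follows from the division. MeHg replicate 2, with the lowest granule marker sum, had the most Ugcg of the MeHg libraries. The part of granule cell content in the Ugcg difference was not tested.

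Ugt8a, which adds galactose to ceramide in oligodendrocytes, had 64.4, 85.6 and 64.3 CPM in MeHg replicates 1, 2 and 3, against 70.8, 61.4 and 70.7 CPM in Control replicates 1, 2 and 3. MeHg replicate 2 stood above all others, and the other MeHg libraries lay within the Control range. The log2 fold change was 0.08 ± 0.12 (SE, 95% interval -0.19 to 0.35), -0.06 without MeHg replicate 2, and -0.13 when Control replicate 2 was left out as well. MeHg replicate 2 was also the library with the most myelin and the most brainstem marker RNA. Per 1000 CPM of summed myelin markers, Ugt8a had 8.55 to 9.29 CPM in MeHg libraries and 10.1 to 10.9 CPM in Control libraries, with no overlap. The parts of myelin and brainstem RNA in these values were not tested.

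Over the set, 1 of 10 genes was called lower in MeHg and 0 were called higher by edgeR, where 1.79% and 0.575% of all tested genes were called lower and higher. With upper-quartile scaling the calls over all genes were 119 lower and 78 higher, against 301 lower and 97 higher with the scaling used here. At an unadjusted p under 0.05, 2 of the 10 were lower (Cers6 and Ugcg) and 2 higher (Cers2 and Degs1), and DESeq2 and limma-voom also called Cers6 alone. Groups did not overlap for 4 of the 10 genes, where 29.4% of all tested genes did not overlap. The median log2 fold change was 0.02 over the 10 genes and 0.01 over all tested genes. Since the set was chosen for the fall of Cers6, nothing is read from these counts.

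**Figure D4:**
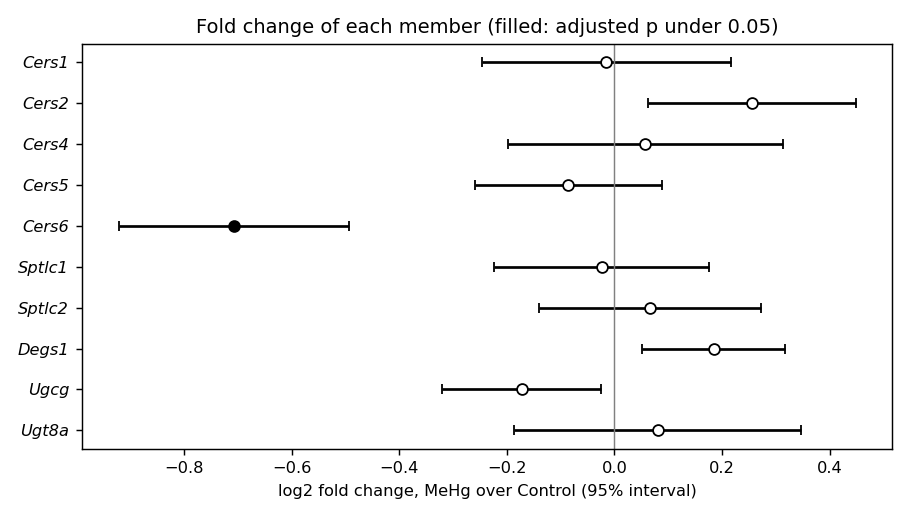
Log2 fold change (MeHg over Control) of each of the 10 genes with its 95% interval from the edgeR fit, filled where the adjusted p was under 0.05. Only Cers6 is filled, at -0.71, and the intervals of Cers2, Degs1 and Ugcg leave out 0 before any adjustment over genes.

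The profile of Cers6 was set against those of all tested genes by the root mean square difference of the log2 CPM, centred on each gene's mean, over the 6 libraries. The 5 nearest of 13707 genes with at least 1 CPM and a settled symbol were Svep1 (difference 0.07), Tbata (0.09), Zscan20 (0.10), Erc1 (0.11) and Sphkap (0.11), with log2 fold changes of -0.73 to -0.56. Svep1 is also on the granule marker list used here. Svep1, Zscan20, Erc1 and Sphkap have lengths of 8375 to 16271 bp, and Tbata one of 2426 bp. Of the other ceramide enzymes, Ugcg was the closest, at a difference of 0.30 and rank 2341, and Cers2 the farthest, at 0.50 and rank 10622. The measure takes in the MeHg against Control difference of Cers6 for which the set was chosen. It therefore largely restates the fold changes, and nothing further is read from these ranks.

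The wider sphingolipid pathway was described with a list of 85 further genes, of which 78 were tested. By edgeR 1 was called lower and 0 higher, and 6 were lower and 12 higher at an unadjusted p under 0.05. DESeq2 called 2 lower and 4 higher, and limma-voom 1 lower and 0 higher. The share with an unadjusted p under 0.05 was 23.1%, near the 24.5% of all tested genes, and the median log2 fold change was 0.02.

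St8sia5, a sialyltransferase that builds complex gangliosides (chromosome 18, 77273535 to 77346467, mm39), was the gene called. It had 176, 151 and 152 CPM in MeHg replicates 1, 2 and 3, against 232, 205 and 225 CPM in Control replicates 1, 2 and 3. All MeHg libraries were lower, and the log2 fold change was -0.47 ± 0.08 (SE, edgeR adjusted p = 0.0431). It lost its call without Control replicate 1 or 3 or MeHg replicate 1 or 3 (adjusted p = 0.0630 to 0.207), with the offset for gene length (0.0735) and with limma on FPKM (0.0876 to 0.162), and the fold change was -0.55 to -0.42 over 20 settings. Per 1000 CPM of summed granule markers it had 24.2 to 26.2 CPM in MeHg libraries and 25.3 to 28.4 CPM in Control libraries, and there the groups overlapped. The part of granule cell content in this fall was not tested. Of 13 ganglioside and globoside synthesis genes tested it was the only one called by edgeR, and the median of the 13 was -0.05.

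The galactolipid branch was a list of 2 genes, and neither was called by edgeR. Fa2h, which makes the 2-hydroxylated fatty acids of myelin galactolipids, had 53.6, 65.0 and 49.6 CPM in MeHg replicates 1, 2 and 3, against 46.2, 42.6 and 42.8 CPM in Control replicates 1, 2 and 3 (log2 fold change 0.35 ± 0.11, edgeR adjusted p = 0.0933, 0.0378 with DESeq2). Gal3st1, which sulfates galactosylceramide and was named after its values were seen, had 14.0, 19.1 and 13.0 CPM in MeHg replicates 1, 2 and 3, against 11.9, 10.5 and 10.8 CPM in Control replicates 1, 2 and 3 (0.48 ± 0.16, edgeR adjusted p = 0.124). MeHg replicate 2 was the highest for both, as it was for Ugt8a and Cers2. Per 1000 CPM of summed myelin markers, Fa2h had 6.59 to 7.72 CPM in MeHg libraries and 6.62 to 7.01 CPM in Control libraries, which overlapped. Gal3st1 had 1.73 to 2.07 CPM in MeHg libraries and 1.67 to 1.73 CPM in Control libraries. The part of myelin RNA in these values was not tested.

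Elovl7, an elongase of fatty acids, had 27.6, 25.5 and 44.4 CPM in MeHg replicates 1, 2 and 3, against 20.6, 16.4 and 12.9 CPM in Control replicates 1, 2 and 3. The groups did not overlap, and the log2 fold change of 0.96 ± 0.23 had an edgeR adjusted p of 0.0606, and of 0.000435 with DESeq2. Elovl7 relative to 1000 CPM of summed myelin markers had 2.76 to 5.90 CPM in MeHg libraries and 1.99 to 2.97 CPM in Control libraries, which overlapped. The highest and lowest libraries for Elovl7, MeHg replicate 3 and Control replicate 3, were those with the highest and lowest choroid plexus marker level. The parts of myelin and choroid plexus RNA in the Elovl7 values were not tested. Tecr and Acsbg1, the most abundant of the 13 elongation and activation genes tested, were at 0.08 ± 0.07 and -0.04 ± 0.06.

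The other branches held no call by edgeR. In ceramide and base synthesis Degs2, a dihydroceramide hydroxylase and desaturase, was at 1.10 ± 0.29 (adjusted p = 0.0714) from a low level, 0.803 FPKM in MeHg libraries and 0.372 FPKM in Control libraries on average. Among sphingomyelin genes Smpdl3a, a relative of acid sphingomyelinase, was at 0.45 ± 0.13 (edgeR adjusted p = 0.0879, 0.0325 with DESeq2). Its highest and lowest libraries, MeHg replicate 3 (35.7 CPM) and Control replicate 3 (20.3 CPM), were also those for choroid plexus markers. Without MeHg replicate 3 it was at 0.32 (edgeR adjusted p = 0.217). Sgms2, named after its values were seen, was at 0.89 ± 0.27 (edgeR adjusted p = 0.101). Its libraries stood in the same order as by choroid plexus marker level. The part of choroid plexus RNA in these values was not tested. The neutral ceramidase Asah2 (0.46 ± 0.18, adjusted p = 0.166) and the ceramide kinase Cerk (-0.24 ± 0.10, 0.198) overlapped between groups. The sphingosine 1-phosphate receptor S1pr1 was at -0.22 ± 0.06 (adjusted p = 0.0936), with 160 to 172 CPM in MeHg libraries and 180 to 200 CPM in Control libraries. Of 14 genes of lysosomal breakdown 12 had positive fold changes and 0 were called by edgeR (3 at an unadjusted p under 0.05, all higher). Over all tested genes 8610 of 16859 were positive, and the share with an unadjusted p under 0.05 was 21.4% in this branch and 24.5% over all tested genes. The summed level of 10 microglia markers was 166 to 200 CPM in MeHg libraries and 145 to 158 CPM in Control libraries, and all 10 had positive fold changes; their part in these values was not tested. Arsa, the sulfatide-degrading sulfatase, was at 0.25 ± 0.09 (adjusted p = 0.131) and Psap, the saposin precursor, at 0.12 ± 0.08 (0.372).

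**Figure D5:**
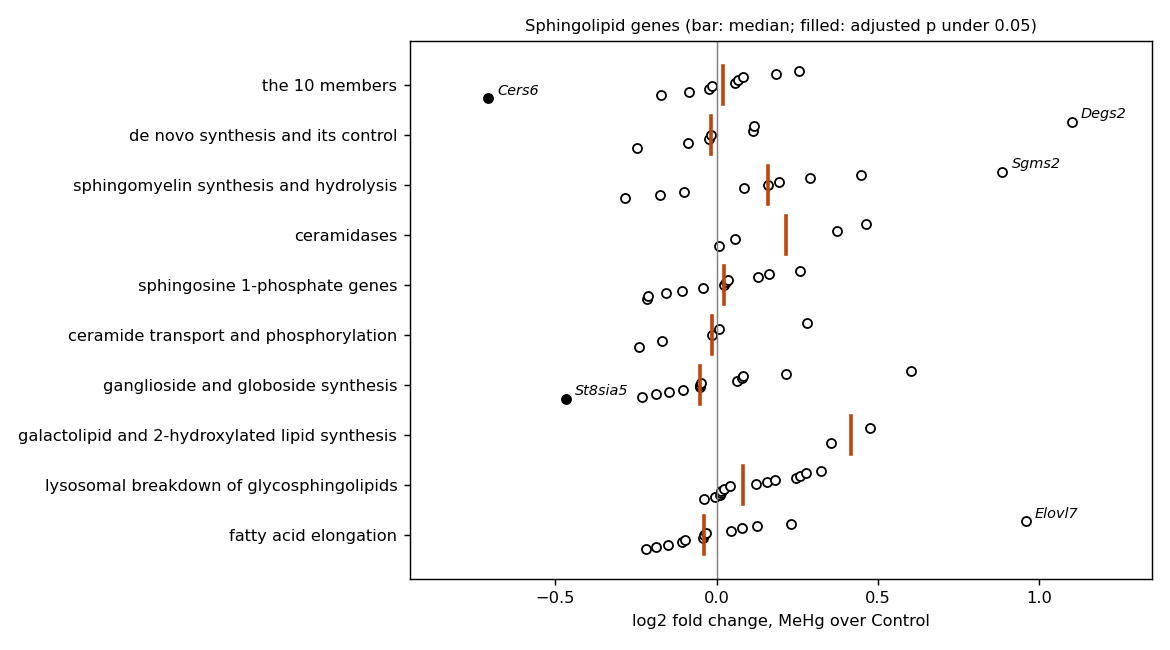
Log2 fold change (MeHg over Control) of the 10 genes of the set (top row) and of 78 further sphingolipid genes by branch, each circle a gene, filled where the edgeR adjusted p was under 0.05, with a bar at the median of each row. Cers6 and St8sia5 are filled, and Degs2, Sgms2 and Elovl7 are named for their size; the row medians run from -0.05 to 0.41, the last over 2 genes.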

How the data were processed

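RNA of 6 mouse cerebella was sequenced as paired-end reads on an Illumina NovaSeq, per the labels' protocols. The submitters' processing notes name mm39 and DESeq2; for the aligner, the counter, the annotation release and strandedness, the source text used here gives nothing. The deposited count table holds whole-number counts per gene with no normalization. The deposited FPKM table was made by the authors from these counts, dividing by gene length and by a total for each library, per the file headers and values; it also holds the authors' group means, which were not used.

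Genes were kept by filterByExpr, scaled by TMM and tested with edgeR 4.0.16 (quasi-likelihood F test, R 4.3.3, group as the only term), with Benjamini-Hochberg adjustment over 16859 genes and calls at an adjusted p under 0.05. The SE is the absolute log2 fold change divided by the square root of F. Alternatives used DESeq2 1.42.0, limma 3.58.1 on voom values and on log2(FPKM + 1 or 0.1) with a mean FPKM of at least 0.5 or unfiltered, other scalings, filters and terms, loess offsets for length and GC content, and each library left out. The procedure was tested on simulated data. Libraries of a group were not copies (chi-square per degree of freedom 7.11 to 17.8).

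The 10 genes, the gene lists, tests and alternatives were chosen with earlier results of these data known. Named pathway genes are those called, the smallest p of each branch and the 3 with the highest FPKM; others are said to be. Of 85 listed pathway symbols 85 matched, 1 by an older symbol. No sequences were used for a comparison. Coordinates are those of the file. Within 1000 bp of GENCODE vM39 lay 9 of 10 starts and 9 of 10 ends, the exceptions being the start of Ugt8a and the end of Cers2. Depth limits precision: counting error is included in the edgeR fit, and intervals are 95%.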

Additional observations from a re-analysis of the deposited data

How the results depend on the processing

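Of the 10 genes, 1 was called lower and 0 higher; the count was 0 lower with the length offset and with limma on log2 FPKM in all 3 forms, 0 to 1 with a library left out, and 0 higher throughout. Of the 78 pathway genes, 1 lower and 0 higher became 4 and 8 without a filter, 2 and 4 with DESeq2, 3 and 4 at an adjusted p under 0.1 or without both libraries numbered 2 (an alternative chosen after seeing the data), 1 and 2 with labelled sex as a term, 2 and 0 with the length and GC offset, and 0 and 0 with the length offset or limma on FPKM; with a library left out they were 0 to 2 lower and 0 to 3 higher. Over all genes, 301 lower and 97 higher became 119 and 78 with upper-quartile scaling, 1178 and 1200 without a filter, 416 and 193 with labelled sex, 102 and 13 with the length and GC offset, 825 and 569 with DESeq2, 1116 and 607 without both libraries numbered 2, 1016 and 637 at an adjusted p under 0.1, and 0 and 0 with the length offset (3583 at an unadjusted p under 0.05) or limma on FPKM (3628 with 1 added). With a library left out they were 0 to 718 lower and 0 to 373 higher: 0 and 2 without MeHg replicate 1, 0 and 0 without MeHg replicate 3 or either of Control replicates 1 and 3, 172 and 48 without Control replicate 2, and 718 and 373 without MeHg replicate 2. The causes were not tested.

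With the replicate block, 390 genes were lower and 258 higher, and Cers6 and St8sia5 kept their calls. Deviations of same-numbered libraries correlated at 0.19, 0.35 and -0.24, and those of differently numbered libraries at -0.43 to 0.36. With 3 libraries in each group these values cannot show whether the numbers pair the mice. No gene of the set other than Cers6 was called under any alternative, and no called value changed sign.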
